A study of Mus musculus with 16 samples.

Results

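Growth hormone acts on tissues through its receptor Ghr and the transcription factors Stat5a and Stat5b. Transcripts of 9 genes of this pathway were followed in 8 mouse tissues under fed and fasting conditions. The genes were Ghr, the leukaemia inhibitory factor receptor Lifr, Stat5a, Stat5b, the feedback inhibitors Cish, Socs2 and Socs3, the IGF carrier subunit Igfals and the transcriptional repressor Bcl6. They were taken by symbol, and each matched 1 of the 55385 genes in the table of counts. Short-read RNA-Seq gave 16 libraries, 1 per treatment from each of liver, kidney, muscle, heart, lung, spleen and the white and brown adipose depots. Male C57BL/6 mice, 3 per group, came at 12 weeks of age, had 10 to 14 days or longer to settle, and ate standard chow. The fed mice ate freely and the fasting mice were without food for 24 h. Equal parts of each tissue from the 3 mice of a group were pooled, so each level below is that of 1 pool and carries no replicate error.

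Binding of growth hormone brings together 2 receptor chains and activates the kinase Jak2, which phosphorylates Stat5a and Stat5b. The phosphorylated STAT5 proteins pair, enter the nucleus and bind DNA at sites of the form TTCNNNGAA. In liver they are known to switch on Igf1, Igfals, Socs2 and Cish, and the SOCS family proteins in turn damp the receptor. Igfals protein holds IGF1 and an IGF binding protein together in blood, and Bcl6 is known to bind many of the same DNA sites as STAT5 and to repress genes there. Lifr signals with the shared chain gp130 (gene Il6st), largely through Stat3. Liver is the main source of circulating IGF1, and the pulsed growth hormone pattern of male rodents sets many sex-biased genes of that organ.

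Library totals lay between 14245178 and 36069968 counts, and 3 counts, the detection floor used here, corresponded to 0.0832 to 0.211 CPM (the count of a gene scaled to the library total). Intervals and this floor cover counting error only. Each tissue carried its own defining markers at high levels. The 8 hepatocyte markers summed to 107128 CPM in fed liver, the 7 skeletal muscle fibre markers to 141040 CPM in fed muscle, and the 7 adipocyte markers to 22520 CPM in fed white adipose. Markers of other cell types also differed between the fed and the fasting library of several tissues, and values of some of these lists are given with the results. In bulk tissue, fewer cells of a type and less RNA per cell cannot be told apart.

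Fasting was compared with fed in each tissue as the log2 ratio of CPM with 0.01 CPM added. A gene was called when this value exceeded 0.5 in size and Fisher's exact test (two-sided, unadjusted) on the 2 libraries gave a p under 0.01. The test compares 2 libraries and not the 2 conditions. All 72 pairs of gene and tissue reached 1 CPM in at least 1 library. Of these, 9 were called up, 23 were called down and 40 were not called. Among all pairs of gene and tissue at 1 CPM or more, 7.93% were called up and 9.94% down. The median log2 value was -0.09 over the 72 pairs and -0.05 over all such pairs.

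**Figure D1:**
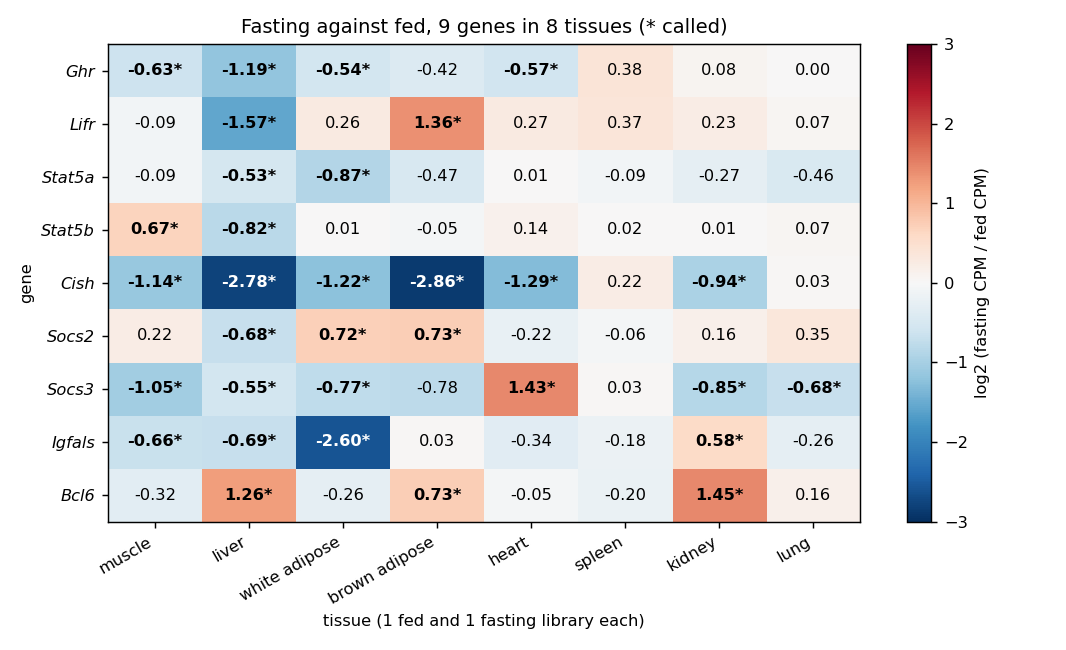
Heat map of log2 (fasting CPM / fed CPM) for the 9 genes (rows) in 8 tissues (columns), with 1 library per tissue and treatment and asterisks on called values. Liver is the only column of these 8 in which all 9 genes are called, and Cish carries the lowest values, -2.78 in liver and -2.86 in brown adipose.

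The tissues differed in how many of the 9 genes moved. The 9 genes were chosen with earlier results of these data known, so these counts are a description. In liver, 8 genes fell and 1 rose, against 15.8% of all genes called down and 7.34% called up. In white adipose, 5 fell and 1 rose, where 9.23% of genes were called down and 19.8% up. In muscle, 4 fell and 1 rose (16.4% down and 7.80% up among all genes). Brown adipose had 1 fall and 3 rises (12.2% down and 8.68% up). Heart had 2 falls and 1 rise (9.65% down and 7.01% up), and kidney had 2 of each (6.23% down and 4.48% up). Lung had 1 fall and no rise (10.1% down and 4.23% up). Spleen had no call in either direction (2.33% down and 3.62% up). Fisher's exact test alone gave a p under 0.01 there for Ghr, Bcl6 and Lifr at log2 differences of 0.38, -0.20 and 0.37. The share of all spleen genes at that p alone was not computed. In the same spleen libraries all 10 pancreatic acinar markers fell (sum 548 to 11.7 CPM) and all 7 erythroid markers rose (sum 3866 to 9394 CPM), and their part in the spleen values of the 9 genes was not tested. In liver 8 of 10 pancreatic acinar markers rose (sum 110 to 243 CPM), and their part in the 9 liver differences was not tested. In kidney 6 of 8 hepatocyte markers fell and 1 rose (sum 1259 to 1644 CPM, with Alb from 32.2 to 7.57 CPM), and their part in the kidney differences of Bcl6, Igfals, Cish and Socs3 was not tested. The largest share of falls thus stood in liver, and the most rises, 3, in brown adipose. In liver the median log2 difference of the 9 genes was -0.69 and that of all genes -0.13.

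Scaling moved some of these values. With TMM factors, which are set so that most genes do not change, the median of all genes moved by 0.135 on the log2 scale in muscle and by 0.123 in liver. Under TMM, 9 pairs were called up and 19 down. The 4 calls lost were those of Ghr and Igfals in muscle and of Socs3 and Stat5a in liver. DESeq2 size factors gave the same counts and also moved the median in lung, by 0.105. The shares of all genes called under either scaling were not computed, so these counts cannot be set against them.

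Levels between genes were set side by side per kilobase of exon. In fed liver, Ghr stood at 84.9 CPM per kb and Lifr at 75.3 CPM per kb. Igfals followed at 35.5 CPM per kb and Stat5b at 17.3 CPM per kb. Cish reached 7.37 CPM per kb, while Socs3, Stat5a, Socs2 and Bcl6 lay between 2.21 and 3.26 CPM per kb. The receptors and Igfals were thus the high transcripts of fed liver, and the inhibitors were low. In fasting liver, Ghr was at 37.3 CPM per kb, Lifr at 25.4, Stat5b at 9.82 and Cish at 1.07 CPM per kb.

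**Figure D2:**
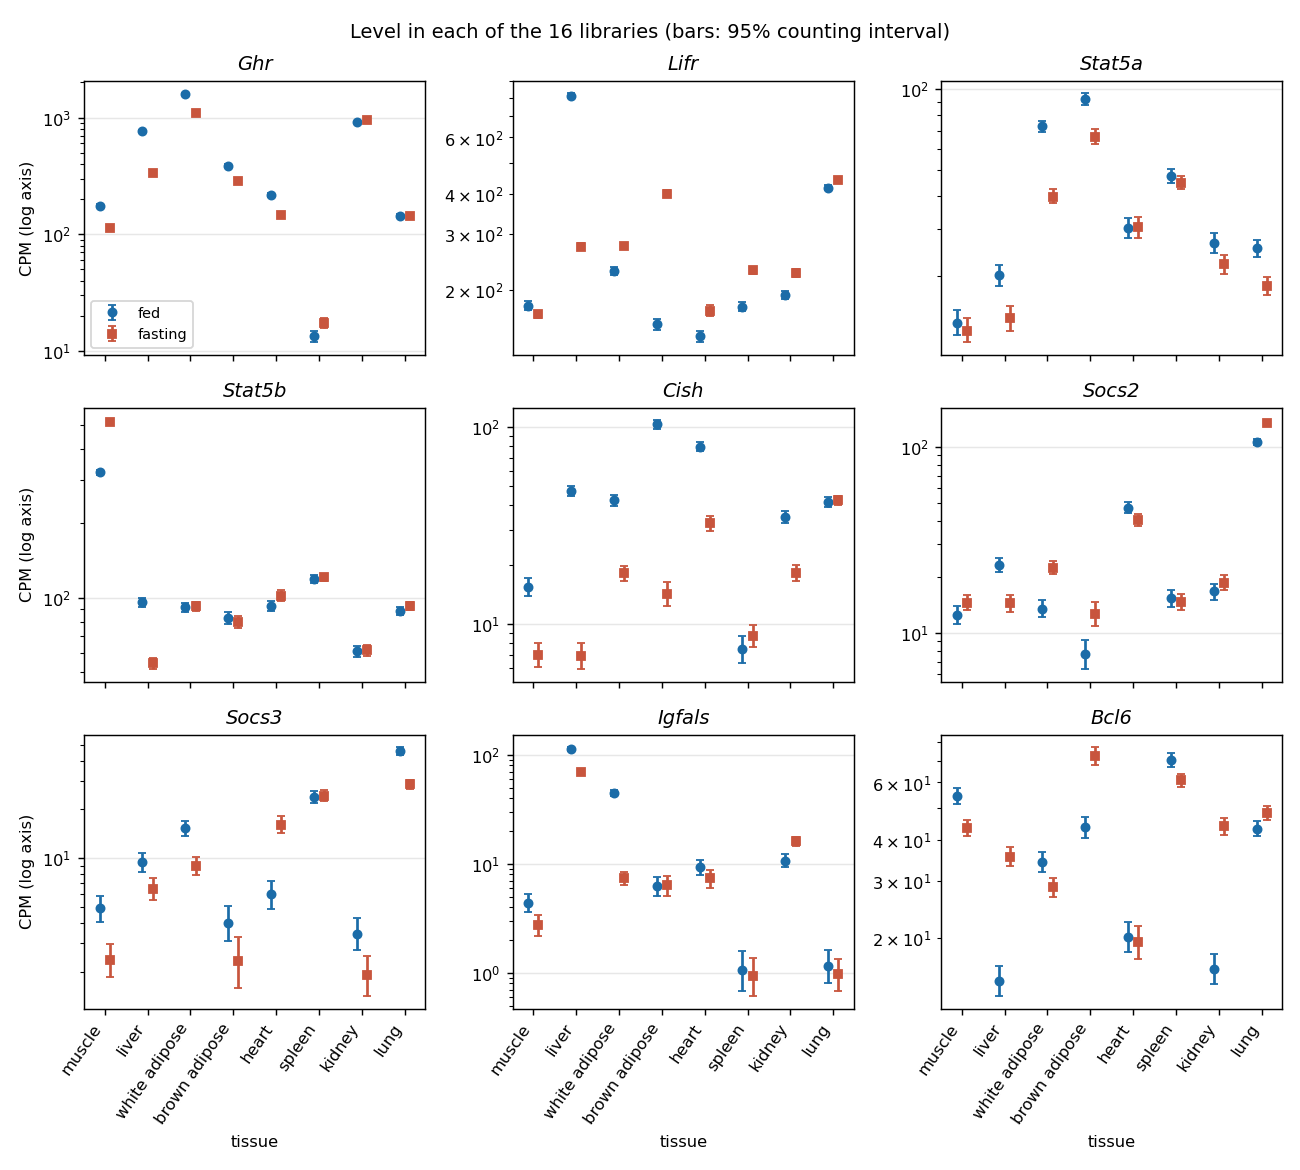
Level of each gene in the 16 libraries, in CPM on a log axis, by tissue, with fed libraries as circles, fasting libraries as squares and bars for the 95% counting interval. For Cish, the fasting point lies below the fed point in every tissue but spleen and lung, and for Ghr, white adipose, kidney and liver stand highest under both treatments.

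Ghr, the growth hormone receptor (ENSMUSG00000055737.12, GRCm38 chr15:3317760-3583492, minus strand), fell in 4 tissues and rose in none. In liver its level was 769 CPM when fed and 337 CPM when fasting, a log2 difference of -1.19 (95% counting interval -1.23 to -1.15). In white adipose it went from 1592 to 1095 CPM (-0.54), in muscle from 175 to 113 CPM (-0.63) and in heart from 217 to 146 CPM (-0.57), in libraries whose hepatocyte and skeletal muscle markers also differed, as given for Socs3. Liver thus showed about 2.28-fold less Ghr, and the other tissues with a call 1.45-fold to 1.55-fold less. The muscle call ended under TMM factors, with a log2 value of -0.50. In the same muscle libraries 5 of 7 adipocyte markers fell, among them Adipoq from 16.1 to 6.79 CPM, while the sum of the list went from 212 to 182 CPM with Fabp4 at 110 and 132 CPM. Cardiomyocyte markers fell there too, 3 of 7, and the part of either list in the muscle differences of Ghr, Igfals, Cish, Socs3 and Stat5b was not tested. Brown adipose moved from 387 to 289 CPM, which was under the fold threshold. Kidney, a tissue with abundant receptor, had 908 CPM fed and 958 CPM fasting, and lung had 144 CPM under both treatments. Spleen held the least, 13.4 CPM fed and 17.5 CPM fasting. White adipose, kidney and liver were the 3 highest and spleen the lowest under both treatments, on library totals and with TMM factors over the 16 libraries. The order within the first 3 depended on the scaling. Fed kidney stood above fed liver on library totals and below it with TMM factors (842 and 1139 CPM), and fasting kidney passed white adipose with TMM factors (935 and 793 CPM).

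Lifr (ENSMUSG00000054263.12, chr15:7090614-7197489, plus strand), the receptor chain for leukaemia inhibitory factor, moved in opposite directions in liver and brown adipose. It went from 812 to 273 CPM in liver, a log2 difference of -1.57 (interval -1.61 to -1.53). In brown adipose it went from 156 to 400 CPM, a log2 difference of 1.36 (interval 1.29 to 1.43). Fed liver was the highest of the 8 tissues for Lifr. The rank of fasting liver depended on the scaling, since it stood below lung and brown adipose on library totals and above them, at 441 CPM against 387 CPM in brown adipose and 316 CPM in lung, with TMM factors over the 16 libraries. The other 6 tissues were not called. Lung had 418 CPM fed and 441 CPM fasting, white adipose 229 and 274 CPM, and kidney 193 and 226 CPM. Muscle had 178 and 168 CPM, spleen 177 and 230 CPM, and heart 143 and 172 CPM. In brown adipose, all 7 skeletal muscle fibre markers fell, their sum going from 2465 to 1137 CPM. Lifr stood at 178 CPM in fed and 168 CPM in fasting muscle itself, and the part of muscle RNA in the brown adipose differences of Lifr, Cish, Socs2 and Bcl6 was not tested.

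Of the 2 STAT5 genes, which lie next to each other on chromosome 11, Stat5b was the more abundant per kilobase in all 8 fed libraries. Stat5a ran from 1.87 CPM per kb in fed muscle to 12.9 CPM per kb in fed brown adipose. Stat5b ran from 11 CPM per kb in fed kidney to 58.1 CPM per kb in fed muscle. In fed brown adipose they were closest, at 12.9 and 15.0 CPM per kb, and in muscle farthest apart. The proteins are close paralogs, so reads from their shared stretches could be split or lost in counting. Exons of Stat5a also overlap exons of Stat3 on the opposite strand, and Stat3 had 59150 counts over the 16 libraries against 12673 for Stat5a. The strand setting of the counting was not given in the sources used here.

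Stat5a (ENSMUSG00000004043.14, chr11:100859351-100885169, plus strand) fell in white adipose and liver. It went from 72.6 to 39.7 CPM in white adipose (log2 -0.87, interval -0.98 to -0.76) and from 20.1 to 13.9 CPM in liver (-0.53, interval -0.73 to -0.32). The liver value was -0.41 under TMM factors, which is below the threshold. Brown adipose, at 91.8 CPM fed and 66.4 CPM fasting, and lung, at 25.4 and 18.4 CPM, lay just under it at -0.47 and -0.46. Kidney had 26.6 CPM fed and 22.2 CPM fasting, spleen 47.5 and 44.7 CPM, heart 30.3 and 30.4 CPM, and muscle 13.4 and 12.5 CPM. Adipose tissues had the highest Stat5a under fed conditions.

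Stat5b (ENSMUSG00000020919.11, chr11:100780731-100850724, minus strand) rose in muscle and fell in liver. Muscle had 322 CPM fed and 514 CPM fasting, a log2 difference of 0.67 (interval 0.64 to 0.71). Liver had 95.9 CPM fed and 54.4 CPM fasting, a log2 difference of -0.82 (interval -0.92 to -0.72). No other tissue moved by more than 0.14 in log2 size. Spleen had 119 and 121 CPM, heart 92.6 and 102 CPM, white adipose 91.8 and 92.4 CPM, and lung 88.4 and 92.8 CPM. Brown adipose had 82.9 and 80.0 CPM, and kidney 60.8 and 61.3 CPM. Fasting liver was the lowest of the 8 tissues on library totals, but with TMM factors over the 16 libraries it stood at 87.8 CPM, above 5 of them, and kidney was the lowest at 59.8 CPM.

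Cish (ENSMUSG00000032578.7, chr9:107296026-107302784, plus strand) encodes an SH2 protein of the SOCS family that is induced by STAT5 and limits STAT5 signalling. It fell in 6 of 8 tissues and rose in none. Brown adipose went from 103 to 14.2 CPM (log2 -2.86, interval -3.08 to -2.65) and liver from 47.3 to 6.89 CPM (-2.78, interval -3.02 to -2.55). These were 7.24-fold and 6.85-fold lower levels. The skeletal muscle fibre markers fell in the same brown adipose pair, as given for Lifr, and Cish in muscle stood at 15.5 CPM fed. Heart, in the libraries whose marker differences are given for Socs3, went from 79.3 to 32.4 CPM (-1.29), white adipose from 42.4 to 18.2 CPM (-1.22), muscle from 15.5 to 6.98 CPM (-1.14) and kidney from 35 to 18.2 CPM (-0.94). Lung, at 41.5 CPM fed and 42.4 CPM fasting, and spleen, at 7.46 and 8.69 CPM, were not called. Brown adipose was the highest fed tissue, followed by heart and liver, on library totals and with TMM factors. Among fasting libraries the order depended on the scaling. On library totals lung was the highest and liver the lowest, overlapping with muscle, and with TMM factors over the 16 libraries heart was the highest (36.6 CPM) and spleen the lowest (5.84 CPM), with liver at 11.1 CPM. The falls in brown adipose and liver passed under all 9 alternative settings, the strictest of which assumed a coefficient of variation of 0.4 between libraries. The opposite-strand genes that overlap Cish had 120 and 4 counts in all libraries against 11548 for Cish.

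The STAT5 core motif was searched in the windows from 250 bases before to 50 bases after the RefSeq starts of the 9 genes (GRCm38.p6), which need not be the starts of the genes as counted. The core reads TTCNNNGAA and is its own reverse complement, so both strands were covered. Windows were at hand for 8 of the 9 genes, 15 in all, and 6 windows of 4 genes held the motif. Among all 32851 windows 8.30% held it, and 0.457% held at least 2. The window of Cish, the gene that fell in the most tissues, is shown in full. It holds 2 copies, at bases 251 to 259 and 262 to 270, separated by the 2 bases in lower case between the capitals. It is chr9:107296409-107296708, plus strand, from RefSeq.
Cish: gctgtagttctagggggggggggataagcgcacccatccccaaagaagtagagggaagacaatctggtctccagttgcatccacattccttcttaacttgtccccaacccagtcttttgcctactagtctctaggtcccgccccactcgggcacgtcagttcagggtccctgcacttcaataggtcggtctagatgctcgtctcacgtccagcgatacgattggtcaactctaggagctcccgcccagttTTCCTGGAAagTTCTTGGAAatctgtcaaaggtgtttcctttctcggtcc
Igfals, Socs3 and Bcl6 also held the motif, and the stretches around each match are shown for comparison, with the motif in capitals and its position given on the strand of the gene.
Igfals chr17:24877608-24877616 (plus strand): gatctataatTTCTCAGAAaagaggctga
Igfals chr17:24878173-24878181 (plus strand): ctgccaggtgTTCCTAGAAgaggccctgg
Socs3 chr11:117969512-117969520 (minus strand): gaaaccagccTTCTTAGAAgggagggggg
Bcl6 chr16:23988962-23988970 (minus strand): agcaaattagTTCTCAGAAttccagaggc
Bcl6 chr16:23981443-23981451 (minus strand): aggccgcggcTTCCTGGAAagttacttct
Bcl6 chr16:23981397-23981405 (minus strand): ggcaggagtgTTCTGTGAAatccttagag
Bcl6 chr16:23981363-23981371 (minus strand): atcgactacgTTCCGGGAAtgagagggct
The 3 last Bcl6 stretches lie in 1 window at a downstream start. No window of Ghr, Stat5a, Stat5b or Lifr held these letters, and Socs2 had no window. The form with 4 bases between TTC and GAA, which occurs in 6.95% of all windows, was not in the windows of the 9 genes. A match is a description of the sequence and not of binding.

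Socs2 (ENSMUSG00000020027.18, chr10:95385362-95417180, minus strand), which is known to restrain growth hormone signalling and body growth, fell in liver and rose in both adipose tissues. Liver had 23.2 CPM fed and 14.4 CPM fasting, a log2 difference of -0.68 (interval -0.88 to -0.49). White adipose had 13.5 and 22.3 CPM (0.72, interval 0.52 to 0.92), and brown adipose had 7.65 and 12.7 CPM (0.73, interval 0.40 to 1.07). In these adipose libraries Socs2 and Cish, both feedback inhibitors, thus moved in opposite directions. Lung had the highest level of the 8 tissues, 106 CPM fed and 135 CPM fasting (0.35, not called). Heart had 47.0 and 40.5 CPM, kidney 16.7 and 18.6 CPM, spleen 15.3 and 14.7 CPM, and muscle 12.5 and 14.5 CPM. None of these 5 tissues was called.

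Socs3 (ENSMUSG00000053113.3, chr11:117966079-117970047, minus strand), an inhibitor best known for damping gp130 and Stat3 signals, fell in 5 tissues and rose in heart. The falls were from 4.90 to 2.36 CPM in muscle (log2 -1.05), 3.43 to 1.90 CPM in kidney (-0.85), 15.3 to 8.97 CPM in white adipose (-0.77), 45.8 to 28.7 CPM in lung (-0.68) and 9.42 to 6.45 CPM in liver (-0.55). The liver call ended with a pseudocount of 1 CPM and under TMM factors, where its log2 value was -0.42. Brown adipose went from 3.97 to 2.32 CPM (-0.78), on 66 and 33 counts, with a Fisher's exact p of 0.0115 that missed the threshold. Spleen had 23.8 and 24.3 CPM. Heart was the exception, with 5.98 CPM fed and 16.1 CPM fasting, a log2 difference of 1.43 (interval 1.09 to 1.78). In the same heart libraries, 7 of 8 hepatocyte markers rose, their sum going from 26.2 to 95.2 CPM, and 2 of 7 cardiomyocyte markers fell, Actc1 from 10124 to 5489 CPM and Myl7 from 14.5 to 0.918 CPM, while Myh6, Tnnt2, Myl3, Ryr2 and Nppa were not called. Of the 7 skeletal muscle fibre markers 4 rose there, with Myh4 going from 112 to 202 CPM, while the sum of the list was 2343 and 2258 CPM. The part of these markers in the heart differences of Socs3, Ghr and Cish was not tested. In lung, all 7 B cell markers fell (sum 431 to 224 CPM) and all 7 T cell markers fell (sum 89.0 to 26.1 CPM) along with Socs3. So did 5 of 7 cardiomyocyte markers (sum 1141 to 604 CPM). Of 7 neutrophil markers 3 fell and 2 rose there (sum 94.2 to 67.6 CPM). Of 8 hepatocyte markers 5 fell and 1 rose, and of 7 adipocyte markers 4 rose and 1 fell. The part of these lists in the lung fall of Socs3 was not tested. Socs1, an inhibitor outside the 9 genes, fell in 5 tissues, from 2.08 to 0.388 CPM in muscle, 1.45 to 0.281 CPM in brown adipose and 6.89 to 2.33 CPM in lung among others.

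Igfals (ENSMUSG00000046070.9, chr17:24865997-24882010, plus strand) encodes the acid labile subunit, which keeps IGF1 in the circulation. It fell in white adipose, liver and muscle and rose in kidney. The white adipose level went from 44.5 to 7.33 CPM, a 6.06-fold lower value (log2 -2.60, interval -2.83 to -2.38). Liver, the tissue with the highest level, went from 112 to 69.4 CPM (-0.69, interval -0.78 to -0.61). Muscle went from 4.36 to 2.75 CPM (-0.66, interval -1.10 to -0.24), a call that ended under TMM factors at a log2 difference of -0.53, still past the fold threshold, and kidney from 10.7 to 16.1 CPM (0.58, interval 0.35 to 0.82). Heart had 9.29 and 7.34 CPM and brown adipose 6.20 and 6.32 CPM. Lung had 1.16 and 0.970 CPM and spleen 1.06 and 0.934 CPM, on 24 to 35 counts per library. The white adipose difference therefore exceeded the liver difference on the log2 scale, although fed liver held more transcript. Hepatocyte markers in white adipose summed to 130 CPM fed and 127 CPM fasting, with Alb at 72.0 and 67.9 CPM. Of the 7 adipocyte markers 3 fell in that tissue, with Lep going from 1142 to 263 CPM, and 4 were not called. The sum of that list went from 22520 to 19877 CPM. There too, 2 of 7 kidney tubule markers rose, with Lrp2 going from 34.9 to 710 CPM. In addition, 2 of 7 B cell markers fell, with Ighm going from 338 to 76.3 CPM. The part of these lists in the Igfals, Stat5a, Socs3, Cish, Ghr and Socs2 differences of white adipose was not tested.

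The ligand Igf1 and its binding proteins were read beside Igfals as a list of 11 genes. In liver, 3 of the 11 rose and 1 fell, and of the 10 at 1 CPM or more these were the same numbers, where 7.34% of all liver genes at that level were called up and 15.8% down. Igfbp1, which binds IGF1 in fasting blood, rose from 28.1 to 186 CPM (log2 2.73), Igfbp2 rose from 300 to 937 CPM (1.64) and Igfbp4 rose from 830 to 1188 CPM (0.52). Igfbp5 fell from 14.7 to 10.1 CPM (-0.54) and lost its call under TMM factors. Igf1 itself had 737 CPM in fed and 675 CPM in fasting liver, a log2 difference of -0.13 (interval -0.16 to -0.10) that was not called. Liver transcripts of Ghr and Igfals thus fell in the pools in which Igf1 stayed under the fold threshold. Outside liver, Igf1 fell in muscle (45.5 to 18.7 CPM), brown adipose (62.5 to 27.9 CPM), white adipose (415 to 286 CPM), kidney (21.8 to 13.4 CPM) and lung (24.2 to 12.5 CPM). The IGF1 receptor gene Igf1r rose in white adipose from 79.0 to 180 CPM (1.19) and in brown adipose from 35.1 to 76.7 CPM (1.13). Igfbp3, a partner of Igfals in the ternary complex, rose in white adipose from 27.3 to 104 CPM (1.92) and in brown adipose from 14.7 to 53.6 CPM (1.87). Igfbp5 fell in muscle from 591 to 98.4 CPM (-2.59).

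Bcl6 (ENSMUSG00000022508.5, chr16:23965052-23988852, minus strand), the repressor, rose in 3 tissues and fell in none. Kidney went from 16.1 to 44.0 CPM (log2 1.45, interval 1.28 to 1.62), liver from 14.8 to 35.5 CPM (1.26, interval 1.08 to 1.45) and brown adipose from 43.7 to 72.4 CPM (0.73, interval 0.59 to 0.87). It was the 1 gene of the 9 that rose in liver. Muscle had 54.5 CPM fed and 43.5 CPM fasting, spleen 70.2 and 60.9 CPM, and white adipose 34.3 and 28.7 CPM. Lung had 43.3 and 48.4 CPM and heart 20.2 and 19.5 CPM. Fed liver and fed kidney had been the 2 lowest tissues, with overlapping intervals. Spleen was the highest fed tissue on library totals and muscle on TMM factors over the 16 libraries.

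Liver genes that differ between the sexes and follow the growth hormone pattern were counted as 2 lists. These lists name genes known from sex comparisons, and every mouse here was male. Both lists were chosen with earlier results of these data known, so their counts are a description. Of 17 male-biased genes, all at 1 CPM or more, 9 fell and 2 rose, where 15.8% of all liver genes at that level were called down and 7.34% up. Hsd3b5, a steroid dehydrogenase, fell from 290 to 8.57 CPM (log2 -5.08), and Selenbp2, a selenium binding protein, fell from 910 to 101 CPM (-3.18). The transporter Slco1a1 fell from 790 to 340 CPM (-1.22) and the fatty acid elongase Elovl3 from 537 to 238 CPM (-1.17). Serpina1e, Ugt2b38, C6, Mup21 and Gstp1 fell by 0.59 to 0.81 on the log2 scale. Under TMM factors 7 of the 9 falls passed, and the share of all liver genes called under them was not computed. Cyp2d9 rose from 1010 to 1768 CPM (0.81) and Cyp4a12b from 58.2 to 102 CPM (0.80). Mup3 and Mup7, the highest with Serpina1e, had 7459 and 3043 CPM fed and 5436 and 3298 CPM fasting and were not called. The Mup, Cyp4a12, Cyp2d and Hsd3b genes have near-identical copies, between which the counting could split reads.

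Of 15 female-biased genes, 12 had a count in liver, 4 rose and 2 fell. Only 4 of them reached 1 CPM, of which 2 rose and 1 fell, too few to set against the shares of all genes. The steroid hydroxylase Cyp17a1 rose from 2.26 to 55.8 CPM (log2 4.62) and the thioesterase Acot3 from 1.95 to 37.7 CPM (4.26). Cyp3a16, which also rose, had 17 counts in the fasting library. The calls on Cyp2b9, with 7 counts fed and 0 fasting, and on Cyp2c69, from 2.69 to 1.48 CPM (-0.86, and -0.73 under TMM factors), were lost under TMM factors, where both log2 differences stayed past the fold threshold. Acot3 also rose in kidney, from 8.15 to 52.6 CPM (2.69).

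**Figure D3:**
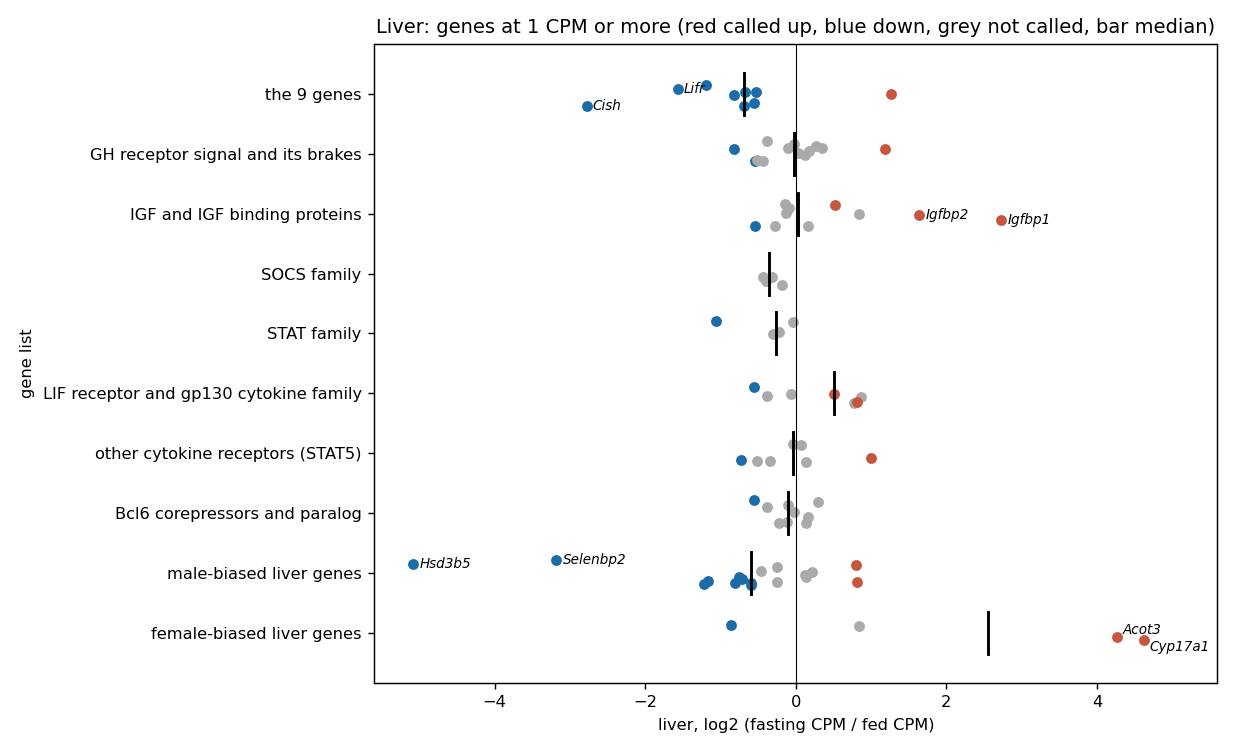
Liver log2 (fasting CPM / fed CPM) of genes at 1 CPM or more in at least 1 liver library, by gene list, with called genes in colour, other genes in grey and a bar at each median. The 9 genes have a median of -0.69 and the male-biased genes one of -0.59, while the 13 other genes of the receptor signal centre near -0.03.

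The other lists of the pathway were counted in liver in the same way. Of 13 other genes of the receptor signal and its brakes, 2 fell and 1 rose, near the 15.8% and 7.34% of all liver genes. Jak2, the receptor kinase, fell from 36.2 to 24.8 CPM (log2 -0.54, and -0.42 under TMM factors, where the call was lost), and the prolactin receptor Prlr fell from 137 to 77.8 CPM (-0.82). The insulin receptor substrate Irs2 rose from 27.1 to 61.9 CPM (1.19), and it also rose in heart from 20.7 to 107 CPM (2.37) and in brown adipose from 120 to 281 CPM (1.23). None of the 5 other SOCS genes was called in liver. Stat3, the main target of Lifr signalling, had 128 CPM fed and 109 CPM fasting.

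Around Lifr, 2 of 13 genes of the gp130 cytokine family rose in liver and 1 fell, all 3 among the 7 genes at 1 CPM or more, where 7.34% of all liver genes were called up and 15.8% down. The IL-6 receptor Il6ra rose from 44.5 to 78.0 CPM (log2 0.81), Osmr from 6.86 to 9.78 CPM (0.51), and Il11ra1 fell from 25.7 to 17.5 CPM (-0.56). The Osmr call was lost with a pseudocount of 1 CPM and the Il11ra1 call under TMM factors (-0.43). The shared chain Il6st had 326 CPM fed and 311 CPM fasting and was not called, unlike its partner Lifr. Il6ra rose more in muscle, from 5.19 to 29.6 CPM (2.51), and in brown adipose, from 15.0 to 60.4 CPM (2.01). Among 12 other receptors that use STAT5, Il15ra rose in liver from 30.5 to 60.8 CPM, and the call on Csf2ra, with 3.26 and 1.96 CPM (-0.73), was lost under TMM factors at a log2 difference of -0.60, still past the fold threshold. Of 9 Bcl6 corepressors and its paralog, Tbl1x alone was called in liver, falling from 91.6 to 62.1 CPM (-0.56, and -0.44 under TMM factors, below the threshold). Over these 9 lists together, 13 of 100 genes were called up and 18 down in liver, and under TMM factors 14 up and 9 down. Of the 75 at 1 CPM or more, 11 (14.7%) were called up and 17 (22.7%) down on library totals, where 7.34% and 15.8% of all liver genes at that level were. The lists thus held more falls than rises on library totals and fewer under TMM factors. The share of all liver genes called under TMM factors was not computed.

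All 16 libraries were also fitted in 1 model of tissue and treatment, in which the 8 tissues stand in for replicates although all of them derive from 2 groups of 3 mice. None of the 9 genes passed an adjusted p of 0.05 in edgeR's quasi-likelihood test, while 2.31% of the 17296 genes tested were called up and 2.08% down. At an unadjusted p under 0.05 stood 2 of the 9, Cish and Stat5a, where 23.8% of all genes tested did. DESeq2's Wald test called 1 of the 9 down, where it called 6.09% of all genes down. For Cish the log2 difference was -1.20 ± 0.34 (SE), with an edgeR unadjusted p of 0.00468 and an adjusted p of 0.0687, and its level was lower when fasting in 6 of 8 tissues. DESeq2 gave Cish an adjusted p of 0.00626, and the edgeR value was 0.0468 without spleen, where 2.22% of all genes were called down, and 0.0410 with no filter, where 0.817% were. For Stat5a the fit gave -0.31 ± 0.11 (SE), an edgeR adjusted p of 0.121. Ghr stood at -0.33 ± 0.15 (SE) and Igfals at -0.50 ± 0.31 (SE), with edgeR adjusted p of 0.224 and 0.359. Without white adipose the Igfals estimate was -0.16. The other 5 genes lay between -0.35 (Socs3) and 0.37 (Bcl6) on the log2 scale, and Socs3 stood at -0.60 without heart.

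Other pathway genes passed this test, among them the following. They come from 9 lists of 100 genes, not all of which were tested. Of all genes tested, 2.31% were called up and 2.08% down. Irs2 (0.90), Igf1r (0.59), Il6ra (1.13), Tbl1xr1 (0.29) and Acot3 (2.89) were higher with fasting on the log2 scale. Igfbp5 (-0.92), Socs1 (-1.09), Stat2 (-0.39), Lif (-1.11) and Bcl6b (-1.18) were lower, and the edgeR adjusted p of these 10 genes lay between 0.0214 and 0.0483. Bcl6b, the paralog of Bcl6, fell in all tissues but liver.

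**Figure D4:**
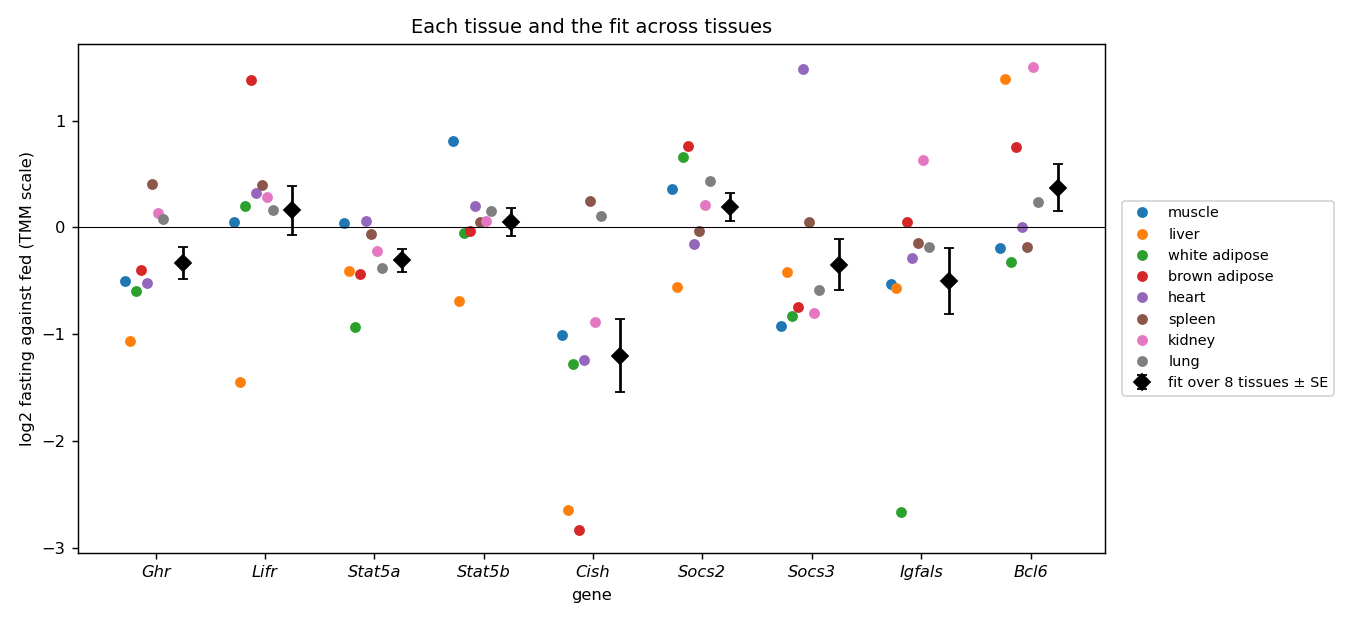
Log2 fasting against fed on the TMM scale for each of the 9 genes, with 1 coloured point per tissue and a diamond for the fit over 8 tissues with its standard error. The points of every gene lie on both sides of 0, and those of Igfals and Cish spread most widely, and the Cish estimate of -1.20 is the farthest of the 9 from 0.

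The genes most like Ghr, Igfals, Socs2, Cish and Bcl6 in level were sought by Pearson's r of log2(CPM + 1) over the 16 libraries. The search covered 13224 genes with a mean of at least 5 CPM. The libraries share tissue pairs, so r is a description. For Ghr these were Sqor (0.942), Ssr3 (0.920) and Pcx (0.910). For Igfals they were Oaf (0.911), Gstm4 (0.898) and Scp2 (0.877). For Socs2 they were Myl7 (0.912), Scube2 (0.912) and Emp2 (0.904). For Cish they were Pigyl (0.885), Nr3c2 (0.826) and Abcb10 (0.816), and for Bcl6 Rnmt (0.811), Riok3 (0.775) and Uspl1 (0.758). Cish and Bcl6 thus had looser neighbours than the other 3.

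Likeness of the fasting response was taken over the 8 log2 differences (pseudocount 1 CPM) among 7945 genes, where 8 points leave wide room for high values of r. The nearest to Ghr was Slc25a23 (0.970), to Lifr Amn1 (0.980), to Stat5a Esyt1 (0.967) and to Stat5b Rnf111 (0.972). The nearest to Cish was Magi1 (0.966), to Socs2 Nae1 (0.967) and to Socs3 Plgrkt (0.956). For Igfals it was Ppp1r18 (0.958) and for Bcl6 Hsdl2 (0.933), followed by Oplah (0.912) and Decr1 (0.907). No member was among the 3 nearest genes of another member.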

How the data were processed

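Tissue of 3 mice per group was pooled, and the authors sequenced 1 strand-specific library per tissue and treatment as paired-end reads. They used fastp 0.23.2, FastQC 0.11.8, HISAT2 2.2.1.0 on GRCm38 and featureCounts (Subread 2.0) on GENCODE annotation. The deposited values are raw counts per gene, with each gene's exon length as an other value. The strand setting and whether reads or pairs were counted are not given in the sources used here.

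CPM was computed on library totals. Gene symbols matched for 55144 of 55385 genes. Calls used the study's rule (Fisher's exact test, unadjusted p under 0.01, log2 fold change above 0.5, pseudocount 0.01). Intervals are exact 95% counting intervals. The fit across tissues used edgeR 4.0.16 (R 4.3.3) with TMM factors, filterByExpr by treatment, and tissue and treatment as terms, with Benjamini-Hochberg adjustment, and it had 7 residual degrees of freedom. Other steps used Python 3.11.15, scipy 1.17.1 and pandas 2.3.3. Promoter windows came from RefSeq (GRCm38.p6). The steps were tested on simulated data.

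The 9 genes and all lists were chosen with earlier results of these data known. Beside the 9 genes in all tissues, the text names, in liver, the 3 highest genes of a list and called genes at 5 CPM or more, elsewhere called genes of 5 lists at 5 CPM with a log2 change above 1, the 3 genes nearest in pattern, and the 2 highest markers. Others, such as Myl7, Socs1, the smaller changes of Igf1, Igf1r, Igfbp3 and Igfbp5, and genes under 5 CPM, were named after their values were seen. Some list genes under this rule are not reported here. Alternatives were a pseudocount of 1 CPM, TMM or DESeq2 1.42.0 size factors, totals without the 10 highest genes, a filter at 1 CPM, adjusted p, a log2 change above 1, an exact test in edgeR at a set coefficient of variation (0.2 or 0.4), and other fits across tissues.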

Additional observations from a re-analysis of the deposited data

Results flagged for a closer look

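In 5 of the 9 genes, 1 tissue was called up and another down. Each such difference rests on 1 library per treatment and tissue, and the difference itself was not tested. Igfals rose in kidney (0.58) and fell in white adipose (-2.60), a log2 difference of 3.18 between the tissues. Lifr rose in brown adipose (1.36) and fell in liver (-1.57), 2.93 apart. Socs3 rose in heart (1.43) and fell in muscle (-1.05), 2.48 apart. Stat5b rose in muscle (0.67) and fell in liver (-0.82), 1.49 apart. Socs2 rose in brown adipose (0.73) and fell in liver (-0.68), 1.41 apart. The other 4 genes were called in 1 direction.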

How the results depend on the processing

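No library has a replicate, so animal-to-animal spread is unknown and the calls cover counting error only. The 9 rises and 23 falls of the 9 genes became 4 and 9 at a log2 change above 1, 4 and 8 in the exact test of edgeR once a coefficient of variation of 0.2 was assumed, and 0 and 3 once 0.4 was. The 3 falls that passed all 9 alternatives were Cish in liver, Cish in brown adipose and Igfals in white adipose. The 13 rises and 18 falls of the liver lists became 7 and 6, 6 and 4, and 3 and 2 in the same order, and the falls numbered 9 under TMM factors and 9 under DESeq2 size factors, where the median of all liver genes moved. The shares of all genes called under these settings were not computed, so the counts left cannot be read as many or few. Near-zero values changed sign without a call. Stat5a in muscle was 0.04 under TMM and 0.08 under DESeq2 factors, and -0.01 in heart without the 10 highest genes. Stat5b in white adipose was -0.05, -0.07 and -0.01 under the same 3 scalings, and Lifr in muscle 0.05 and 0.08 under the first 2. Across tissues, the count of members called down was 0 in the edgeR fit and became 1, namely Cish, with DESeq2, 1 with no filter, and 0 to 1 when each tissue was left out in turn (1 without spleen). Of all genes tested, 2.08% were called down in the edgeR fit, 6.09% with DESeq2, 0.817% with no filter and 2.22% without spleen. With 1 tissue left out, the estimate for Igfals ran from -0.70 (without kidney) to -0.16 (without white adipose), that for Socs3 from -0.60 (without heart) to -0.25 (without white adipose), that for Ghr from -0.43 (without spleen) to -0.22 (without liver), that for Socs2 from 0.12 (without white adipose) to 0.29 (without liver), that for Bcl6 from 0.22 (without kidney) to 0.48 (without white adipose), that for Stat5b from -0.06 (without muscle) to 0.15 (without liver) and that for Lifr from -0.01 (without brown adipose) to 0.38 (without liver), and Lifr stood at -0.22 with no tissue block. No adjusted p of another member passed under any of the 14 alternatives, 1 of them, a filter by the full design, chosen after seeing the data. The tissue term of the edgeR fit pairs the fed and the fasting library of a tissue. Without it 0 members were called, and of all 17296 genes tested 0 were called up and 1 down. The highest fed tissue stayed the same under TMM factors over all libraries for 8 of the 9 genes, Bcl6 being the exception. The causes of these shifts were not tested.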
